A study of Homo sapiens with 4 samples.

Results

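The SMN complex genes described here are 9 symbols of a table of 34545 gene symbols. They are SMN1 and SMN2, which encode the survival motor neuron protein, the Gemin genes GEMIN2, GEMIN4, GEMIN5, GEMIN6, GEMIN7 and GEMIN8, and STRAP (also called UNRIP). They were taken by name, and the group was proposed with the difference between creatine and control libraries already known, chiefly that of SMN2. Differences between the groups for these 9 genes are therefore given as a description, with the adjusted p of the fit over all genes where it helps to place them. All 9 symbols were in the table and all 9 passed the low-count filter. The sum of SMN1 and SMN2 is given beside each copy.

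The libraries were 2 labelled Creatine and 2 labelled Ctrl, all labelled as DLD-1, a colorectal carcinoma line, of wild-type genotype. They lack defining markers of that line, as given further below. The study asked how creatine acts on ferroptosis in colorectal cancer. The labels give neither the creatine dose and duration nor what the control cells received. Nor do they name separate cultures for the libraries of a group, so a p-value here speaks only of the variation among these 4 libraries, part of which may be technical.

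The SMN complex loads the ring of Sm proteins onto the small nuclear RNAs of the spliceosome in the cytoplasm, after which the assembled particles return to the nucleus. SMN binds the Sm proteins and forms oligomers, and the Gemins and STRAP select the RNA, hold the Sm proteins or join the other subunits. Humans carry SMN1 and the near-identical copy SMN2. Loss of SMN1 causes spinal muscular atrophy, and most transcripts of SMN2 skip an exon because of a single C-to-T change.

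That exon is shown because it holds the sole coding difference by which a read can be assigned to SMN1 or SMN2. In the longest protein-coding transcripts of GENCODE 29 (GRCh38), both 1536 bases long with 9 exons, the copies differ at 2 bases and are 99.9% identical. The first difference is C6T in exon 8 (SMN1 base, position counted from 1 at the 5′ end of the exon, SMN2 base). Exons are numbered here along that transcript, and the one numbered 8 is the exon commonly called SMN exon 7. The second is G236A in exon 9, in the 3′ UTR. The coding part of exon 8 follows 5′ to 3′ from those GENCODE transcripts, without the stop codon, at chr5:70951941-70951988 for SMN1 and chr5:70076521-70076568 for SMN2 on the plus strand. The differing base is in capitals.
SMN1: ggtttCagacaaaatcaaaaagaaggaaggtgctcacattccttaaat
SMN2: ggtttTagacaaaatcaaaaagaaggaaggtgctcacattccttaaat
Of the 1437 windows of 100 bases along this transcript, 200 (13.9%) hold a difference, and the share is 6.72% for windows of 50 bases and 21.6% for windows of 150 bases. These shares are for the full transcript, and an SMN2 transcript that skips exon 8 holds only the difference in exon 9. The deposited gene lengths, 3097 bases for SMN1 and 3011 for SMN2, are also longer than the transcript compared. The other 86.1% of 100-base windows of each copy occur letter for letter in the other copy. Neither the read length nor the counting of multi-mapped reads is given in the sources used here. No 100-base window of GEMIN2, GEMIN4, GEMIN5, GEMIN6, GEMIN8 or STRAP occurs in a transcript of another gene of GENCODE 29, and 4 of 1558 windows of GEMIN7 do, in PPP1R37. Only exact matches on the same strand were sought, for the longest protein-coding transcript of each member. Processed pseudogenes GEMIN2P1, GEMIN2P2, GEMIN8P2, GEMIN8P3 and GEMIN8P4 are annotated, and matches to them with differing bases were not tested.

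**Figure D1:**
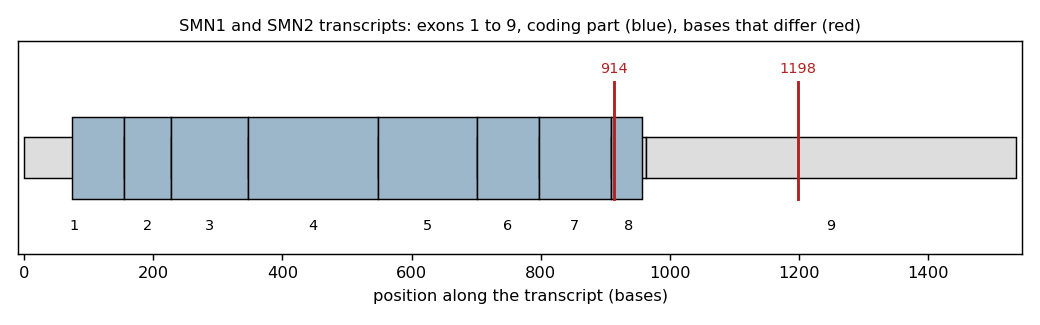
The SMN1 and SMN2 transcripts of 1536 bases drawn to scale along the x axis in bases, with exons numbered 1 to 9, the coding part as taller blue boxes and the differing bases as red lines. The differences lie at bases 914 and 1198, so that no base before exon 8 tells the copies apart.

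SMN1 (chr5:70925030-70953942) and SMN2 (chr5:70049612-70078522) were far lower in control library 2 than in the other 3 libraries. SMN1 had 858 and 878 counts in creatine libraries 1 and 2, against 1322 and 24 in control libraries 1 and 2. SMN2 had 342 and 474 counts in the creatine libraries, against 234 and 44 in the controls. The 95% Poisson intervals of the counts in control 2 were 15.4 to 35.7 for SMN1 and 32.0 to 59.1 for SMN2. They cover only the counting error of reads that are independent of each other. Counting error therefore covers little of the gap between the controls. In bulk libraries such as these, fewer cells that express a gene and less RNA per cell cannot be told apart. As most of the transcript is shared by both copies, the counts also depend on how shared reads were assigned, and whether that was done alike in all 4 libraries was not tested.

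As CPM, the counts scaled to library size, SMN1 stood at 16.7 and 18.3 CPM with creatine and at 22.1 and 0.489 CPM in controls. SMN2 stood at 6.64 and 9.90 CPM with creatine and at 3.91 and 0.896 CPM in controls. Their sum was 23.3 and 28.2 CPM with creatine and 26.0 and 1.39 CPM in controls. Control 1 lay above both creatine libraries for SMN1 and between them for the sum, while both controls lay below both creatine libraries for SMN2.

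**Figure D2:**
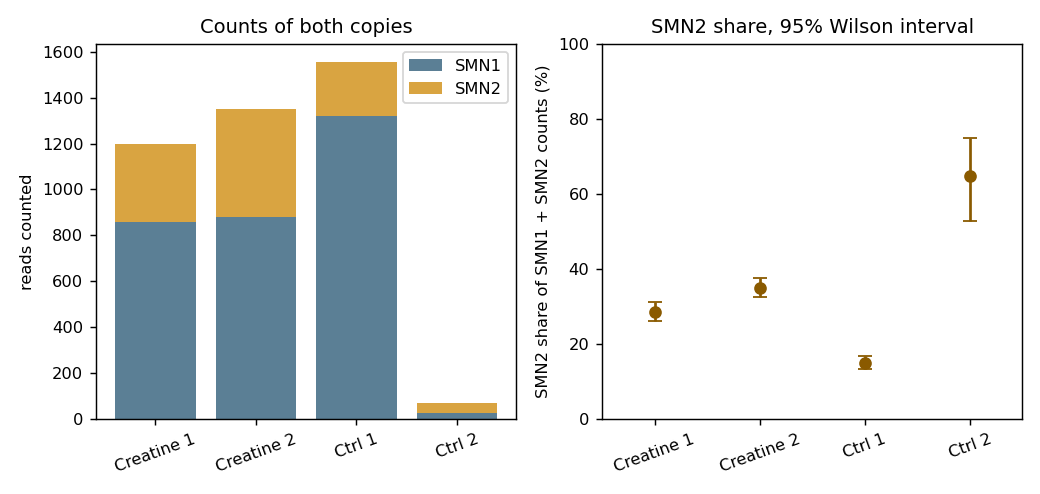
Reads counted for SMN1 and SMN2 (stacked bars, left) and the SMN2 share of both in percent with its 95% Wilson interval (right), in creatine libraries 1 and 2 and control libraries 1 and 2. The total is 1200, 1352, 1556 and 68 reads in that order, and the share of SMN2 is lowest in control 1 and highest in control 2.

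The split between the copies also differed among libraries. SMN2 made up 28.5% (95% Wilson interval 26.0 to 31.1) of the reads of both copies in creatine 1 and 35.1% (32.6 to 37.6) in creatine 2. In control 1 it made up 15.04% (13.3 to 16.9), and in control 2, where 68 reads were counted, 64.7% (52.8 to 75.0). These intervals cover counting error only, and the shares of the controls lay on either side of both creatine libraries. The mean share was 31.8 ± 4.64% with creatine and 39.9 ± 35.1% in controls (SD, n = 2 each), a difference of -8.09 percentage points that changes sign without control 2. In an exact permutation test (two-sided) of the share, p was 1.00, and 2 libraries against 2 cannot go below p = 0.33.

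The 2 controls differed more for SMN1 than for any other of the 15302 genes tested, by -4.51 (control 2 minus control 1, log2 of CPM + 0.5), and SMN2 ranked 4 with -1.66. The median size of this difference over all genes tested was 0.127, and 3 genes exceeded 2. Between the creatine libraries the same differences were 0.13 for SMN1 and 0.54 for SMN2, against a median size of 0.113. The other 7 members differed between the controls by -0.56 (GEMIN8) to 0.69 (GEMIN7).

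**Figure D3:**
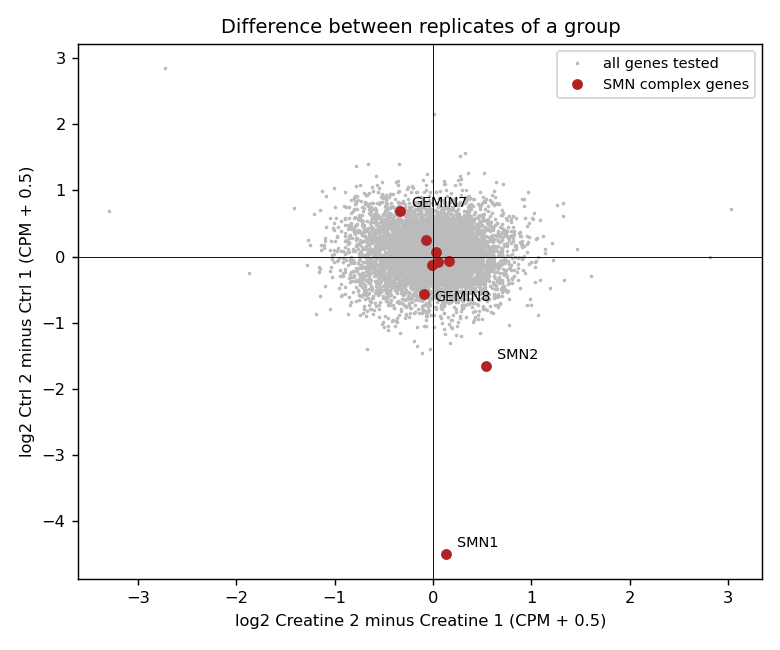
Difference between the replicates of each group for every gene tested, with creatine 2 minus creatine 1 on the x axis and control 2 minus control 1 on the y axis, both in log2 of CPM + 0.5. SMN1 and SMN2 (red) lie below the grey cloud of all genes at -4.51 and -1.66, while the other SMN complex genes lie within it.

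Few genes dropped in this way in a single library, and in control 2 they were SMN1 and SMN2 alone. With limits chosen after these values were seen, a gene counted as low in a library when it stood at least 4 times below the lowest of the other 3, which had to reach 3 CPM. Control 2 had 2 such genes among 10700, SMN1 (34.1 times) and SMN2 (4.36 times). Creatine 1 had NFKBIL1 and FDFT1, creatine 2 had KRT34 and control 1 had PFDN6. The cause of the low counts in control 2 was not tested.

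Of the other genes of the duplicated region of chromosome 5 around SMN1 and SMN2, the 4 tested did not share the drop. GTF2H2, a subunit of the general transcription factor TFIIH, stood at 32.4 and 32.7 CPM with creatine and at 28.4 and 28.0 CPM in controls. Its copies GTF2H2C (40.2 and 46.8 CPM with creatine, 35.6 and 37.0 CPM in controls) and GTF2H2B (8.04 and 8.48 CPM, against 6.84 and 6.50 CPM) were likewise close between the controls. Sequence shared among these copies was not sought, so their counts may also depend on how shared reads were assigned. OCLN, which encodes the tight junction protein occludin, had 88 and 78 counts with creatine and 64 and 98 in controls. NAIP, SERF1A and SERF1B had at most 4 counts in a library and were not tested. Of the 4 genes tested 0 were called different between the groups by edgeR's quasi-likelihood test, DESeq2 or limma-voom, while 2 had an unadjusted p under 0.05 in edgeR (adjusted p from 0.0627 to 0.866 over the 4). With a filter of 1 CPM in 2 libraries edgeR called 1 of them, and with the replicate number as a block it also called 1.

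What creatine over control came to for SMN depended on which control library was used. Over all 4 libraries the mean of SMN2 was 8.27 ± 2.30 CPM with creatine and 2.401 ± 2.13 CPM in controls (SD, n = 2 each), a log2 fold change of 1.76 (SE 0.35). SMN1 averaged 17.5 ± 1.18 CPM with creatine and 11.3 ± 15.3 CPM in controls, a log2 fold change of 0.61 (SE 0.58). The sum averaged 25.8 ± 3.48 CPM with creatine and 13.7 ± 17.4 CPM in controls, with a log2 fold change of 0.89 (SE 0.50, 95% interval -0.15 to 1.93, adjusted p = 0.231 by edgeR). The spread of the sum between the controls exceeds its difference between the groups. Control 1 stood 45.1 times above control 2 for SMN1 and 4.36 times for SMN2. The SE and the interval come from a fit that draws its variance in part from all genes tested. They are therefore no measure of the spread of SMN1, SMN2 or the sum alone.

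Without control 2 the log2 fold change of the sum was -0.03 (adjusted p = 0.929), that of SMN1 -0.35 and that of SMN2 1.07. Without control 1 the same values were 4.21, 5.15 and 3.20. Against control 1 alone the creatine mean of the sum was 0.993 times as high, that of SMN1 0.793 times and that of SMN2 2.12 times. SMN2 thus kept a positive difference against either control, SMN1 took opposite signs, and the sum lay level with control 1 and 18.6 times above control 2.

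**Figure D4:**
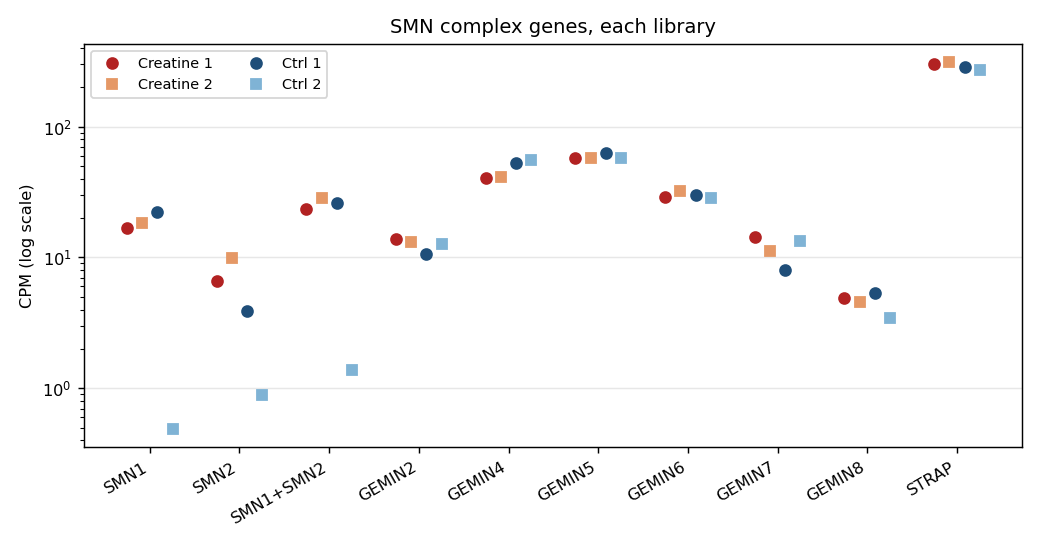
CPM on a log scale (y axis) of each SMN complex gene, and of SMN1 and SMN2 summed, in creatine libraries 1 and 2 (red, orange) and control libraries 1 and 2 (dark and light blue). Control 2 stands apart for SMN1 (0.489 CPM), SMN2 (0.896 CPM) and their sum (1.39 CPM), while for the other genes the libraries lie closer together, with the widest gap at GEMIN7 (11.2 to 14.2 CPM with creatine, 8.08 to 13.3 CPM in controls).

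Genes whose profile over the 4 libraries was most like that of SMN2 were far from identical to it. By the root mean square difference of centred log2(CPM + 0.5) over 4 libraries, the nearest were CLDN1 (0.563), ZFP90 (0.581), TAS2R4 (0.603), TYW1B (0.606) and RPS9 (0.615). For the sum the nearest, CLDN1, ABCB5, DUSP14, CEP126 and HMGN5, lay 1.15 to 1.21 away. RPS9, a ribosomal protein gene, had 726 and 722 CPM with creatine and 482 and 315 CPM in controls.

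GEMIN2 (chr14:39114223-39136973), whose protein binds SMN and holds the Sm proteins before they close on the RNA, had 13.8 and 13.1 CPM with creatine and 10.6 and 12.7 CPM in controls. The creatine libraries lay above both controls, by less than the gap between the controls. The log2 fold change was 0.21 (SE 0.14, adjusted p = 0.319), and 0.03 once each library's trend on GC content and gene length was removed (adjusted p = 0.946).

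GEMIN5 (chr5:154887416-154938209), which recognises the small nuclear RNA, had 57.8 and 57.3 CPM with creatine and 62.5 and 57.4 CPM in controls. The log2 fold change was -0.06 (95% interval -0.23 to 0.11, adjusted p = 0.694), and control 2 lay between the creatine libraries.

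GEMIN4 (chr17:744414-753999), a partner of the helicase GEMIN3 (DDX20), had 40.4 and 41.3 CPM with creatine and 52.6 and 55.5 CPM in controls. Both creatine libraries lay below both controls, and the replicates of each group differed by little. The means were 40.9 ± 0.691 CPM with creatine and 54.0 ± 2.02 CPM in controls (SD, n = 2 each), a log2 fold change of -0.40 (SE 0.09, adjusted p = 0.00309). With 1 library left out it lay between -0.44 and -0.38 and passed each time. GEMIN4 transcripts have a GC content of 57.7%, and of the 4781 genes tested with a GC content over 55%, 26.7% were lower with creatine and 0.648% higher. After removal of that trend GEMIN4 was at -0.19 (adjusted p = 0.213). An annotated pseudogene, DBIL5P, overlaps 2.75% of the exonic bases of GEMIN4 on the opposite strand.

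DDX20 is a subunit that the chosen 9 leave out. It had 34.8 and 29.4 CPM with creatine and 34.5 and 32.0 CPM in controls, a log2 fold change of -0.05 (SE 0.10, adjusted p = 0.801), and of -0.29 after removal of the trend (adjusted p = 0.111, or 0.0573 with the replicate number as a block). The libraries overlapped, unlike those of its partner GEMIN4.

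GEMIN6 (chr2:38751534-38785000) and GEMIN7 (chr19:45079195-45091524) encode a pair of proteins with a fold like that of the Sm proteins, joined to SMN by GEMIN8. GEMIN6 had 28.7 and 32.3 CPM with creatine and 29.8 and 28.5 CPM in controls, with a log2 fold change of 0.06 (SE 0.10, adjusted p = 0.732). GEMIN7 had 14.2 and 11.2 CPM with creatine and 8.08 and 13.3 CPM in controls, with a log2 fold change of 0.25 (SE 0.18, adjusted p = 0.369). Its controls lay further apart than the groups did. Without control 2 its value was 0.64 and passed (adjusted p = 0.00412), and without control 1 it was -0.07 (adjusted p = 0.842). GEMIN7 shares 14.9% of its exonic bases with its antisense gene GEMIN7-AS1, 5.38% with PPP1R37 and 4.70% with MARK4. PPP1R37 and MARK4 lie on its own strand, so that strand cannot separate their reads there, and for GEMIN7-AS1 the strand setting of the counting is not given.

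GEMIN8 (chrX:14008279-14029893), which links GEMIN6 and GEMIN7 to SMN, was the lowest Gemin, with 4.93 and 4.59 CPM with creatine and 5.36 and 3.46 CPM in controls. Both creatine libraries lay between the controls (log2 fold change 0.11, SE 0.22, adjusted p = 0.804). It took the opposite sign without control 2, at -0.18.

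STRAP (chr12:15882391-15903478), which binds the complex through GEMIN7 and is also known as a partner of TGF-beta receptors, had 299 and 309 CPM with creatine and 284 and 269 CPM in controls. Both creatine libraries lay above both controls. The log2 fold change was 0.14 (SE 0.06, adjusted p = 0.144). After removal of the trend on GC content and length it was -0.13, of opposite sign (adjusted p = 0.272).

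**Figure D5:**
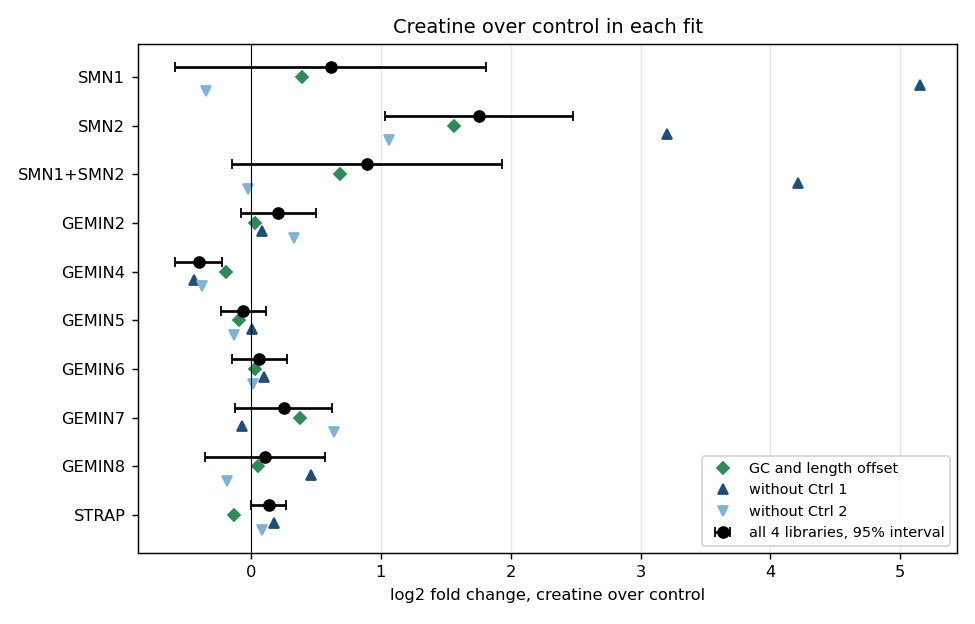
Log2 fold change, creatine over control (x axis), of each SMN complex gene and of SMN1 and SMN2 summed, from the fit of all 4 libraries with its 95% interval (black), after removal of the trend on GC content and length (green), without control 1 (dark blue) and without control 2 (light blue). The fits stay between -0.44 and 0.33 for GEMIN2, GEMIN4, GEMIN5, GEMIN6 and STRAP, while SMN1 runs from -0.35 without control 2 to 5.15 without control 1.

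Of the 9 members 1 was called higher (SMN2), 1 lower (GEMIN4) and 7 neither. SMN2 did not pass in DESeq2 (adjusted p = 0.155) or in robust edgeR (adjusted p = 0.364). Over all genes tested 19.6% were called, 9.15% higher and 10.5% lower, and since the members were chosen on this contrast nothing is read from their count. The median log2 fold change of the 9 was 0.14, against 0.01 over all genes tested. The creatine libraries lay on one side of both controls for SMN2, GEMIN2, STRAP and GEMIN4, 4 of 9, and for 58.2% of all genes tested. With the trend on GC content and length removed, 1 of the 9 (SMN2) and 3.14% of all genes tested were called, and GEMIN5 was at -0.09, GEMIN6 at 0.03, GEMIN7 at 0.37 and GEMIN8 at 0.05. The number called was 3 without control 1 (SMN1, SMN2 and GEMIN4) and 3 without control 2 (SMN2, GEMIN7 and GEMIN4), where 17.4% and 19.4% of all genes were called.

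Per kilobase of the deposited gene length, STRAP was by far the most abundant member, at 138 ± 3.35 CPM per kilobase with creatine and 125 ± 4.92 in controls (SD, n = 2 each), above 98.3% of the genes tested. GEMIN5 followed at 10.2 ± 0.0644 CPM per kilobase with creatine and 10.6 ± 0.640 in controls. GEMIN4 stood at 7.10 ± 0.120 with creatine and 9.40 ± 0.351 in controls, GEMIN6 at 6.996 ± 0.576 and 6.69 ± 0.217, GEMIN7 at 6.63 ± 1.11 and 5.59 ± 1.95, and GEMIN2 at 5.32 ± 0.195 and 4.599 ± 0.585, all in CPM per kilobase. With creatine, GEMIN4, GEMIN6 and GEMIN7 lay within their spread of each other, and GEMIN8 was lower at 1.97 ± 0.0993, against 1.82 ± 0.552 in controls. SMN1 stood at 5.65 ± 0.380 with creatine and 3.64 ± 4.93 in controls, and SMN2 at 2.75 ± 0.764 and 0.797 ± 0.707. The level of either copy depends on how reads shared by both were counted.

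Genes that act before and after the SMN complex, regulators of SMN splicing and the subunit DDX20 made up 10 lists of 68 genes. The lists were chosen with earlier results of these data known. By edgeR's test 20 of the 68 were higher with creatine, 5 lower and the other 43 not called, which is 36.8% called against 19.6% of all genes tested, with a median log2 fold change of 0.10. Without creatine 1 the counts were 6 higher and 1 lower (10.3% called, against 7.27% of all genes tested). Without creatine 2 they were 11 and 2 (19.1%, against 12.1%), without control 1 they were 12 and 5 (25%, against 17.4%), and without control 2 they were 21 and 3 (35.3%, against 19.4%). After removal of the trend on GC content and length 3 of the 68 were called, SNRPD2, LSM7 and SNAPC1, all higher, which is 4.41%, near the 3.14% of all genes, and the median of the 68 was 0.03. The other 22 called genes did not pass then (adjusted p from 0.0701 to 0.908). All 22 came nearer to 0, 20 of them by over 1.5 times, and the sign turned for SNRPB2 and XPO1. The calls in the lists described next, other than those 3, thus do not hold with the trend removed. Of genes tested with a GC content under 45%, 23.3% were higher with creatine and 0.315% lower. Over 55% these shares were 0.648% and 26.7%. The trend thus runs along the contrast, and its removal would also remove an effect of creatine that goes with GC content. These libraries cannot tell such an effect from a technical trend.

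Of the 8 Sm core genes, whose proteins form the ring that the complex loads, 3 were higher and 5 were not called (median log2 fold change 0.27). SNRPD1 had 153 and 151 CPM with creatine and 109 and 121 CPM in controls (0.40, adjusted p = 8.4e-04). SNRPE (0.46) and SNRPD2 (0.24) were also higher. With the trend removed SNRPD1 was at 0.20 (adjusted p = 0.100), SNRPE at 0.16 (adjusted p = 0.452) and SNRPD2 at 0.27 (adjusted p = 0.0210). Of 10 LSm genes, relatives that form the rings of U6 and U7 particles and of messenger RNA decay, 5 were higher and 5 were not called (median 0.19). The smallest p-values were those of LSM8 (0.50), LSM7 (0.42) and LSM5 (0.35), and after removal of the trend LSM8 was at 0.30 (adjusted p = 0.111), LSM7 at 0.55 (adjusted p = 0.00348) and LSM5 at 0.09 (adjusted p = 0.688).

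Among 6 genes for the methylation of Sm proteins, which precedes their transfer to SMN, PRMT7 was lower (-0.36, adjusted p = 0.0392) and 5 did not pass. The methyltransferase PRMT5 had 119 and 118 CPM with creatine and 131 and 121 CPM in controls (-0.09), and its partners WDR77 and CLNS1A were at 0.00 and 0.16. Of 7 genes that export, cap and reimport the small nuclear RNA, 3 were higher and 4 were not called. The 3 were the cap-binding genes NCBP2 (0.28) and NCBP1 (0.23) and the exportin XPO1 (0.19). The import adaptor SNUPN was at 31.7 ± 0.715 CPM with creatine and 31.6 ± 0.842 CPM in controls (SD, n = 2 each).

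Of 8 genes for the transcription of small nuclear RNAs, SNAPC1, a subunit of the complex that binds their promoters, was higher, with 164 and 177 CPM with creatine and 118 and 117 CPM in controls (0.54, SE 0.07, adjusted p = 7.6e-05, and 0.24, adjusted p = 0.0468, with the trend removed). The other 7 did not pass, with SNAPC4 at -0.26 and ELL at -0.23. Of 5 Cajal body genes, USPL1 (0.39) and NPAT (0.30) were higher and WRAP53 (-0.34) was lower, while COIL, which encodes the scaffold coilin, stood at a log2 fold change of 0.11 (adjusted p = 0.511).

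Among proteins particular to the U1 and U2 particles, SNRPB2 was higher (0.27) and SNRNP70 (-0.34) and SNRPA (-0.22) were lower, of 5. Of 8 genes of the minor spliceosome, RNPC3 (0.64) and ZCRB1 (0.29) were higher and PDCD7 (-0.35) was lower. Of 10 genes known to regulate the splicing of the SMN exon that holds the coding difference, 3 were higher, TRA2A (0.26), HNRNPA2B1 (0.23) and TIA1 (0.29), and 7 were not called. SRSF1, which favours inclusion of that exon, had 0.15 (adjusted p = 0.0946), and HNRNPA1, which opposes it, had 0.12 (adjusted p = 0.159), as log2 fold changes. The table gives 1 count per gene, so inclusion of the exon could not be measured.

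Over the whole series, total counts per library lay between 48249693 and 59860043. The replicates of a group were not the same library deposited again, since chi-square divided by its degrees of freedom was 8.54 between the creatine libraries and 15.1 between the controls, where sampling alone gives about 1. Across the groups it was 32.7 to 51.2. Of 10 markers of colon epithelium, 8 were under 1 CPM in every library, among them EPCAM with 0 and 0 counts with creatine and 2 and 0 in controls and CDX2 with 0 and 0 counts with creatine and 8 and 0 in controls. The summed list lay between 327 and 342 CPM with creatine and between 392 and 395 CPM in controls, nearly all from KRT8 and KRT18. Of 6 mesenchymal markers 0 were under 1 CPM everywhere, with vimentin (VIM) at 2329 and 2362 CPM with creatine and 2687 and 2538 CPM in controls. The 3 endothelial markers measured summed to 311 to 315 CPM with creatine and 371 to 384 CPM in controls, nearly all from TIE1. The 3 immune markers summed to 162 to 163 CPM with creatine and 186 to 196 CPM in controls, mostly from CD68. The 5 fibroblast markers summed to 10.5 to 13.6 CPM with creatine and 12.7 to 12.8 CPM in controls. The libraries therefore lack defining markers of the labelled line and are called by their labels. Their part in the results was not tested.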

How the data were processed

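Total RNA was made into 4 libraries, per the labels' protocols, with the TruSeq RNA kit. HISAT2 2.2.1, featureCounts, FastQC 0.11.9 and DESeq2 with genome GRCh38 are named in the submitters' processing notes. Annotation, strandedness and the counting of multi-mapped reads are not given there. The deposited table holds raw, whole-number counts per symbol, with a gene length.

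The test was that of edgeR 4.0.16, R 4.3.3 (filterByExpr, TMM, quasi-likelihood, group as the only term) over 15302 genes, with Benjamini-Hochberg adjustment over all of them and a threshold of 0.05. The sum of SMN1 and SMN2 was tested in the same fit with both rows replaced by 1. CPM are scaled by TMM, and log2 fold changes are creatine over control. Their SE is the size of the log2 fold change divided by the square root of the test's F. Intervals of 95% use the median total degrees of freedom over all genes, 22.9, although each gene alone has 2 residual ones. Transcripts, coordinates and GC content came from GENCODE 29 on GRCh38, and 23 tested genes without a GC value took the median. A smooth trend of each library on GC content and gene length (mgcv 1.9.3) served as an offset in an alternative fit. The edgeR fit without that offset was tested on simulated counts with set fold changes. The simulation held no trend on GC content and no gene made low in a single library. The members, lists, tests and alternatives were chosen with earlier results of these data known. Named are all members and DDX20, the measured neighbours of SMN, at most 3 genes of each list, by smallest p, and the 5 genes nearest in profile. PRMT5, WDR77, CLNS1A, SNUPN, COIL, SRSF1 and HNRNPA1 were named after their values were seen, for their roles.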

Additional observations from a re-analysis of the deposited data

How the results depend on the processing

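The number of genes called was 3001 of 15302 and stayed within 1.5 times of that with other size factors, other filters, DESeq2 1.42.0, limma-voom, robust edgeR and a replicate block, but was 480 with the GC and length offset and 887 with that offset and the block. With 1 library left out it lay between 1162 (without creatine 1) and 3116, with 1949 without creatine 2. The number of members called, 2 of 9, was 1 with DESeq2 and robust edgeR, where SMN2 dropped out (adjusted p = 0.155 and 0.364). It was also 1 with the offset, where GEMIN4 dropped out. With no low-count filter, limma-voom or the replicate block it was 3, as SMN1 was added. With the offset and the block it was 2, SMN1 and SMN2.

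The log2 fold change of SMN1 and SMN2 summed, 0.89, did not pass the threshold but did with no low-count filter (0.88), limma-voom (1.88), the replicate block (1.61) and the block with the offset (1.41). With 1 library left out it lay between -0.026 and 4.21, passing at 4.21 without control 1, 1.03 without creatine 1 and 0.75 without creatine 2 but not at -0.026 without control 2. SMN1 was called in 7 alternatives and lay between -0.35 (without control 2) and 5.15 (without control 1). The cause of these differences was not tested. Signs also changed for STRAP with the offset (-0.13, and -0.13 with the block). With 1 library left out, values changed sign for GEMIN5 (-0.13 to 0.0038), GEMIN6 (-0.027 to 0.14), GEMIN7 (-0.072 to 0.64), GEMIN8 (-0.18 to 0.46) and DDX20 (-0.18 to 0.060), where 0.64 for GEMIN7 alone passed the threshold. GEMIN2 kept its sign and GEMIN4 kept a negative value in all 13 alternatives run. The difference in SMN2 share, -8.09 percentage points, was -7.98 per base of gene length and lay between -32.9 and 16.7 with 1 library left out.

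The labels number replicates 1 and 2 in each group without saying that a number marks a shared culture or day, and the deviations of same-numbered libraries correlated at -0.03 across genes, so the block has no basis in the design. With the block 3795 genes and 3 members were called. With 1 library left out, the group with 1 library is assumed to vary like the other. At 68 reads, the SMN2 share in control 2 has an interval of 52.8 to 75.0%.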
